A study of Zea mays with 48 samples.

Results

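The top crown of chilled maize seedlings was compared with the top crown of seedlings kept warm, in 6 of the 48 libraries of a study of the inbred line B73. The members were chosen by their labels alone. They were the 3 top-crown libraries of whole-plant chilling, in which shoot and root were both held at 4 °C for 24 h, and the 3 top-crown libraries of the control, in which shoot and root both stayed at 26 °C. The remaining 6 top-crown libraries served for direct contrasts, 3 from shoot-only chilling (shoot at 4 °C, root at 26 °C) and 3 from root-only chilling (shoot at 26 °C, root at 0 °C). The 18 whole-plant chilling and control libraries of bottom crown, leaf and root served to ask where the response of the top crown differed. All seedlings were of the same line and at the stage of 3 leaves, were grown at 26 °C before treatment, and carried no allele or agent that the labels name. The study followed how chilling of part or all of the seedling changes RNA in each tissue.

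The crown joins the shoot to the root, and where its top ends and its bottom begins is not defined in the labels. Which temperature the crown met under shoot-only or root-only chilling, and whether a library came from 1 plant or from several, is not stated. The libraries are called biological repeats, and a p-value here reflects no more than how these samples scatter. In a bulk tissue, fewer cells of a type and less RNA per cell cannot be told apart. Gene models in the files carry identifiers that the name table used here does not pair with names. Nuclear genes are therefore described as identifiers and as groups, and the tissue could not be checked against named markers.

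Maize is of tropical origin, and its seedlings are sensitive to chilling. Cold stiffens membranes, slows enzymes and water uptake, and in many plants sets off a wave of transcription in which cold-responsive regulators and protective proteins rise while genes of growth and cell division fall. The crown holds the shoot apex and the bases of young leaves and roots, so its survival decides whether a seedling can regrow after leaves have died.

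RNA was read near the 3′ end of polyadenylated transcripts, so a count does not grow with transcript length. Total counts were 4970683, 5538941 and 5260244 in the whole-plant chilling libraries, against 5680364, 5592875 and 5185535 in the control libraries. Identifiers with at least 1 count numbered 21411, 22293 and 21554 under whole-plant chilling, against 23255, 22732 and 23054 in control, with no overlap between the groups. The 10 most abundant genes took 9.99%, 11.2% and 12.2% of the counts under whole-plant chilling, against 8.36%, 10.1% and 8.66% in control. Values below are in CPM (read counts scaled to the same library total, with totals corrected by TMM, a trimmed mean of log ratios between libraries).

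Whole-plant chilling was accompanied by changed levels of more than 1 in 3 genes of the top crown that could be tested. Of 17706 genes, 2967 rose and 3447 fell (edgeR quasi-likelihood test, Benjamini-Hochberg adjusted p under 0.05), together 6414 genes or 36.2%. These were 16.8% of genes higher and 19.5% lower, and the median absolute log2 fold change of called genes was 0.94. Falls were more frequent among changes of at least 2-fold, with 985 genes higher (5.56%) and 1995 lower (11.3%), and of at least 4-fold, with 349 higher (1.97%) and 472 lower (2.67%). At 8-fold and beyond the order was the other way round, with 152 genes higher (0.858%) and 94 lower (0.531%). The 3 whole-plant chilling values lay entirely above or below the 3 control values in 8463 genes (47.8%). The balance between directions depends on tool and scaling: DESeq2 called 3118 genes higher and 2930 lower, and with library size alone 1535 genes rose and 5467 fell. The median log2 fold change of all genes was −0.06 with TMM and −0.31 with library size alone, and changes below are to be read against that shift.

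The direction of change went with how abundant a gene was over the 12 top-crown libraries. The whole-plant chilling libraries are among these, so a rise moves a gene up this ranking and a fall moves it down. Part of the relation is thus built in. Of 10715 genes with at least 10 CPM in control, 20% rose and 19.3% fell. Of 10166 genes with at least 10 CPM under whole-plant chilling, 25.6% rose and 12.1% fell. Among the 4427 genes of the lowest quartile of mean abundance over the 12 top-crown libraries, 297 rose (6.71%) and 1105 fell (25%), and their median log2 fold change was −0.49. In the second quartile 438 genes rose and 1042 fell, and in the third 779 rose and 809 fell. In the highest quartile 1453 of 4427 genes rose (32.8%) and 491 fell (11.1%), with a median of 0.22. With library size alone this order of the medians was kept, at −0.73, −0.44, −0.25 and −0.03 from the lowest quartile to the highest, but falls then outnumbered rises in every quartile (646 rises and 944 falls in the highest). Few identifiers appeared or vanished outright. Counts were present in all 3 whole-plant chilling libraries and absent from all 3 control libraries for 95 identifiers, 1 of which averaged at least 10 CPM. The reverse held for 320 identifiers, and 0 of these reached 10 CPM in control.

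**Figure D1:**
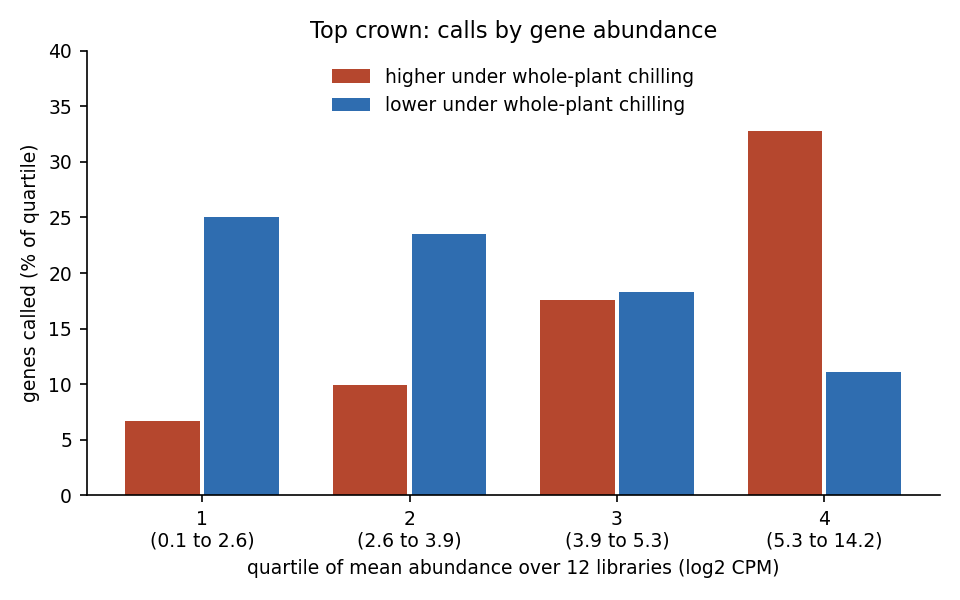
Share of genes called higher (left bar) or lower (right bar) under whole-plant chilling than in control, in % of each quartile, by quartile of mean abundance over the 12 top-crown libraries (log2 CPM). The higher share runs from 6.71% in the lowest quartile to 32.8% in the highest, and the lower share from 25% to 11.1%. The whole-plant chilling libraries count towards this abundance, so part of the trend is built in.

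The identifiers with the largest rises were nearly silent in the warm top crown. Zm00001d044426 had 42.9, 58.5 and 89.3 CPM under whole-plant chilling, against 0, 0 and 0.173 CPM in control. That is 909 counts against 1, a ratio of 1120 with an exact counting interval of 201 to 44400 (adjusted p = 8.98e-10, edgeR). It averaged 2.29 ± 1.18 CPM under shoot-only chilling and 18.7 ± 1.33 CPM under root-only chilling (SD, n = 3 each), so the 4 conditions did not overlap. In the other chilled tissues the same identifier averaged 107 ± 33.3 CPM in leaf, 61.2 ± 10.9 CPM in bottom crown and 13.7 ± 8.19 CPM in root (SD, n = 3 each). Zm00001d002545 had 27.4, 15.3 and 8.06 CPM under whole-plant chilling and 0 counts in every control library, which makes it at least 33.3-fold higher at a floor of 3 counts per library (adjusted p = 0.000591, edgeR). It was the identifier at 10 CPM or more that the control libraries lacked altogether, and it averaged 2.09 ± 1.58 CPM under shoot-only and 10.9 ± 7.77 CPM under root-only chilling (SD, n = 3 each). Its root-only values of 19.9, 6.03 and 6.87 CPM overlapped the whole-plant ones.

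The largest falls took identifiers of moderate abundance close to the limit of detection. Zm00001d038251 had 1.104, 1.15 and 1.52 CPM under whole-plant chilling, against 32.2, 55.0 and 33.8 CPM in control. Its log2 fold change was −4.98 (SE 0.43, adjusted p = 4.71e-07, edgeR), and it averaged 20.2 ± 6.49 CPM under shoot-only and 11.98 ± 5.83 CPM under root-only chilling (SD, n = 3 each). Both local treatments thus lay between the whole-plant and the control values, without overlap with the whole-plant ones. Zm00001d016723 had 0.442, 1.34 and 0.435 CPM under whole-plant chilling, against 15.8, 7.91 and 28.1 CPM in control (log2 fold change −4.46, SE 0.51, adjusted p = 4.97e-06, edgeR), and its log2 fold change was −5.22 without whole-plant chilling replicate 2. It averaged 3.004 ± 0.607 CPM under shoot-only and 4.33 ± 1.09 CPM under root-only chilling (SD, n = 3 each).

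**Figure D2:**
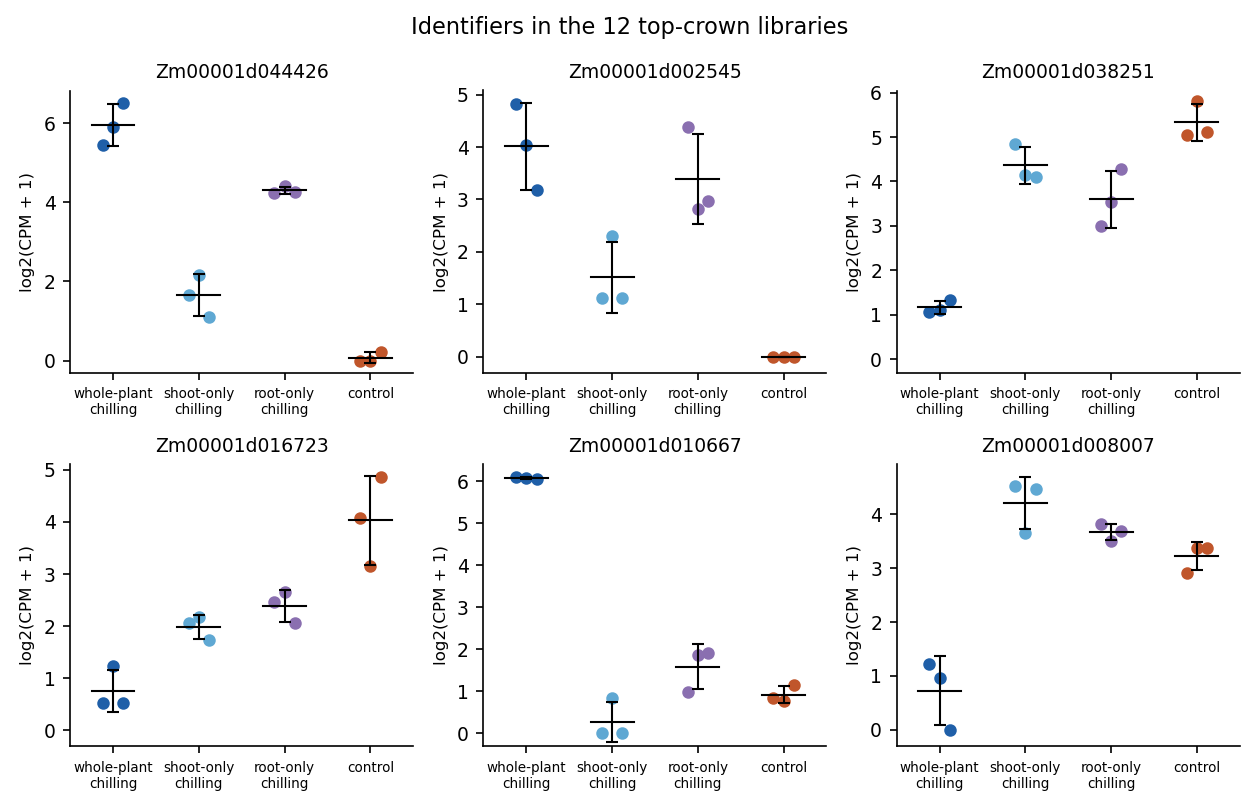
Values of 6 identifiers in the 12 top-crown libraries, as log2(CPM + 1), by condition; points are libraries, horizontal lines the mean and vertical bars the SD (n = 3). Zm00001d044426, Zm00001d002545 and Zm00001d010667 have their highest mean under whole-plant chilling, where Zm00001d002545 overlaps root-only chilling. Zm00001d038251, Zm00001d016723 and Zm00001d008007 are lowest under whole-plant chilling.

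Genes that responded in both chilled leaf and root mostly moved in the same direction in the chilled top crown. These groups were taken from leaf and root libraries, none of which is a top-crown library, as genes called and changed at least 2-fold between whole-plant chilling and control. The labels do not say whether leaf, root and crown libraries share plants. In leaf 4769 of 15845 genes were called (30.1%; 15.8% higher and 14.3% lower), and in root 5515 of 18831 (29.3%; 14.9% higher and 14.4% lower). Of 887 genes higher in both leaf and root, 753 could be tested in top crown, and 497 of them rose and 18 fell, against 16.8% and 19.5% of all genes tested. Their median log2 fold change was 1.14. The 18 falls were 7 and 10 without whole-plant chilling replicates 1 and 3, and 37 with library size alone. Their summed level was 83880, 79120 and 85320 CPM under whole-plant chilling, against 30510, 33870 and 29800 CPM in control. Of 404 genes lower in both organs, 349 could be tested, of which 263 fell and 2 rose; the median was −1.25. Their summed level was 4963, 4944 and 4903 CPM under whole-plant chilling, against 10720, 11980 and 10510 CPM in control.

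Members can pass the filter on low counts through the group where they are high. The shares above were 66% higher and 2.39% lower for genes higher in both organs, and 75.4% lower and 0.573% higher for genes lower in both. Of the 753 tested genes higher in both organs, 113 averaged under 1 CPM in control and could pass through chilled libraries. A minimum of 10 CPM in control alone left 313 of them, of which 213 rose (68.1%) and 10 fell (3.19%), against 20% and 19.3% of all genes with that level. For the group lower in both, a minimum of 10 CPM in whole-plant chilling alone left 115, of which 79 fell (68.7%) and 2 rose (1.74%), against 12.1% and 25.6% of all such genes. Of the chilled root libraries, replicate 1 stood apart: in a chi-square test of counts its statistic per degree of freedom was 34.7 and 29.3 against the other two, which had 13.0 between them. With the root groups rebuilt without it, 488 of 744 genes higher in both organs rose in top crown and 270 of 370 lower in both fell.

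Genes that responded in a single organ were called in that direction more often than in the other, but more of them were not called at all. Of 525 tested genes higher in chilled leaf and not called in root, 214 rose and 36 fell, and of 548 higher in chilled root and not called in leaf, 184 rose and 42 fell. Of 575 genes lower in leaf and not called in root 242 fell and 27 rose, and of 673 lower in root and not called in leaf 301 fell and 22 rose. In the order given, 275, 322, 306 and 350 members were not called, against 11292 of all 17706 genes tested. Leaf and root moved in opposite directions in few genes. Of 41 tested genes higher in leaf and lower in root, 11 rose (26.8%) and 5 fell (12.2%), with a median log2 fold change of 0.15. Of 27 lower in leaf and higher in root, 9 rose (33.3%) and 4 fell (14.8%), with a median of 0.10. Among all genes 16.8% rose and 19.5% fell.

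**Figure D3:**
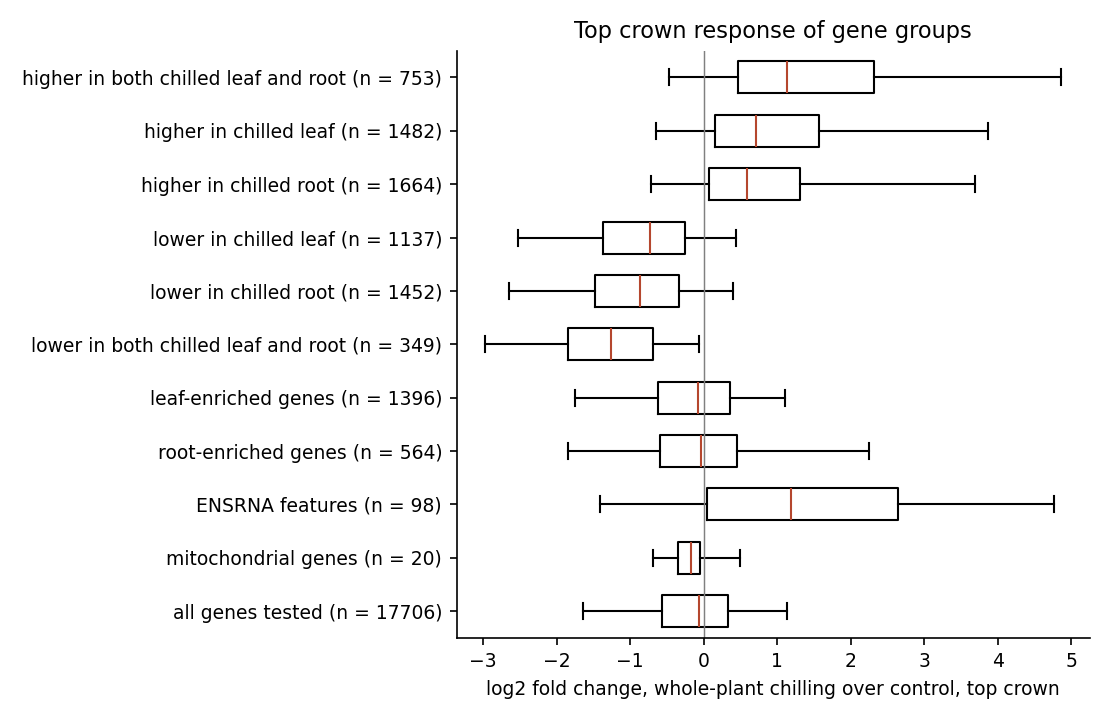
Log2 fold change of whole-plant chilling over control in top crown for gene groups and for all genes tested; boxes span the quartiles, the line is the median and whiskers run from the 5th to the 95th percentile of genes. The groups higher in both chilled leaf and root (median 1.14) and lower in both (median −1.25) lie on opposite sides of all genes (median −0.06), and leaf-enriched and root-enriched genes lie close to it.

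Genes that mark leaf or root as organs were called about as often as other genes. With no named marker at hand, leaf-enriched genes (at least 10 CPM in control leaf and at least 8 times the control root level) and root-enriched genes (the converse) stood in. Of 1396 tested leaf-enriched genes 201 rose (14.4%) and 276 fell (19.8%), with a median log2 fold change of −0.08. Their summed level was 50330, 47700 and 49840 CPM under whole-plant chilling, against 44790, 48870 and 40570 CPM in control. Of 564 tested root-enriched genes 110 rose (19.5%) and 114 fell (20.2%), with a median of −0.03. Their summed level was 99300, 109300 and 121800 CPM under whole-plant chilling, against 79340, 101400 and 79950 CPM in control. All these shares lay near the 16.8% and 19.5% of all genes. With library size alone 117 leaf-enriched genes rose and 418 fell, along with the shift of all genes. The part of either organ's genes in the other results was not tested.

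ENSRNA features, a class of annotated identifiers that the files do not describe further, rose more often than they fell, mainly through features that were scarce in control. Most of the class was hardly read: 98 of 1765 features could be tested. Of these, 51 rose (52%) and 7 fell (7.14%), against 16.8% and 19.5% of all genes, and the median log2 fold change was 1.19, or 1.16 with the 1 feature at 0 in control placed at its bound. The class took 0.140%, 0.0916% and 0.0981% of all counts under whole-plant chilling, against 0.0511%, 0.0431% and 0.0485% in control, so the groups did not overlap. Averaged over the 98 features, log2 CPM was 2.62, 2.29 and 2.31 under whole-plant chilling, against 1.33, 1.26 and 1.01 in control. Of the tested features 32 averaged under 1 CPM in control and 7 under 1 CPM in whole-plant chilling, so many could pass the filter through chilled libraries alone. The excess of rises was not seen among features that were abundant in warm seedlings: of the 8 with at least 10 CPM in control, 2 rose (25%) and 4 fell (50%), against 20% and 19.3% of all genes with that level. Of the 23 with at least 10 CPM under whole-plant chilling, 18 rose (78.3%) and 3 fell (13%), against 25.6% and 12.1% of all such genes. The kit primes on poly(A), and whether these features are polyadenylated transcripts or share reads with overlapping genes cannot be told from counts.

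Side by side, and with the control libraries in common, 45 of the 98 ENSRNA features rose and 4 fell under shoot-only chilling, where 11.4% of all genes rose and 12.5% fell. Under root-only chilling 37 rose and 6 fell, where 17.8% of all genes rose and 18.1% fell. In direct contrasts whole-plant chilling was higher than shoot-only chilling in 31 features and lower in 19, against 12.5% and 13.3% of all genes. It was higher than root-only chilling in 27 and lower in 7, against 12.4% and 14.5% of all genes. Set against other tissues, the response differed from that of the bottom crown in 0 of 128 features tested (edgeR quasi-likelihood interaction; 18 at an unadjusted p under 0.05, and 1 by DESeq2), was higher than that of leaf in 3 (2.08%) and lower in 14 (9.72%) of 144, and was higher than that of root in 4 (2%) and lower in 9 (4.5%) of 200. Among all genes 0.776% differed from the bottom crown, 5.46% were higher and 6.05% lower against leaf, and 3.65% were higher and 6.1% lower against root. The share of all genes at an unadjusted p under 0.05 is not given here, so the 18 features have no background.

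**Figure D4:**
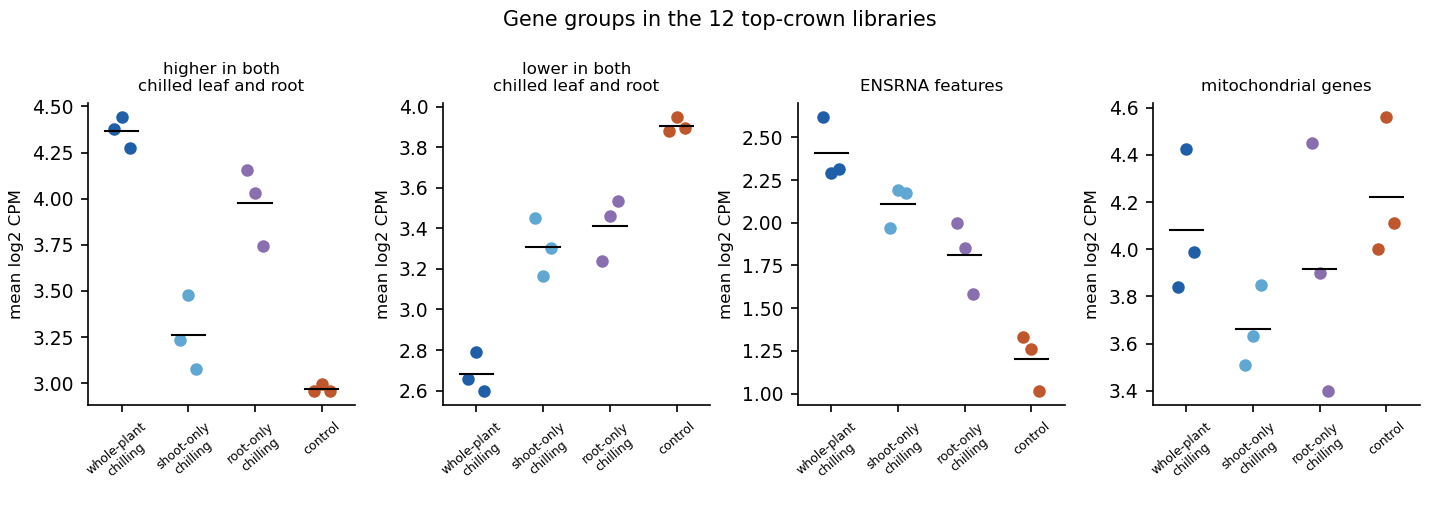
Mean log2 CPM over the tested members of 4 gene groups in each top-crown library, by condition; points are libraries and lines the mean of 3. The 3 groups on the left separate whole-plant chilling from control without overlap (for ENSRNA features 2.29 to 2.62 against 1.01 to 1.33), and the mitochondrial genes on the right do not.

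Few organelle genes could be tested. Mitochondria carry genes for parts of the respiratory chain, for cytochrome c maturation and for ribosomal proteins and RNAs. Because the libraries prime on poly(A), which marks organelle RNAs for decay, and because the nuclear genome of maize holds copies of organelle DNA, these counts are an uncertain measure of organelle transcripts. Of 208 mitochondrial genes 20 could be tested, of which 0 rose and 2 fell (10%), against 16.8% and 19.5% of all genes. The class took 0.0800%, 0.141% and 0.107% of counts under whole-plant chilling, against 0.157%, 0.159% and 0.159% in control, without overlap. The summed CPM of the 20 genes was 873, 1489 and 1221 under whole-plant chilling, against 1418, 1549 and 1418 in control, which overlap. Whether the groups separated thus depended on the measure.

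Both mitochondrial genes that were called are open reading frames of no stated function, and both fell. For orf101-a the level was 12.4, 10.9 and 12.6 CPM under whole-plant chilling, against 18.6, 23.2 and 16.1 CPM in control (log2 fold change −0.69, SE 0.25, adjusted p = 0.0361, edgeR). The level of orf119-a was 2.43, 5.18 and 2.40 CPM under whole-plant chilling, against 5.44, 5.98 and 9.19 CPM in control (log2 fold change −1.02, SE 0.38, adjusted p = 0.041, edgeR). Neither call survived DESeq2 (adjusted p = 0.0548 and 0.0588), and at most 1 of the 20 genes was called lower when any library was left out. The ribosomal RNA gene rrn5 averaged 60.2 ± 15.4 CPM under whole-plant chilling and 42.8 ± 10.4 CPM in control, and cox1, a subunit of cytochrome c oxidase, 8.49 ± 1.85 and 4.92 ± 2.46 CPM (SD, n = 3 each). Neither passed the test (adjusted p = 0.105 and 0.198, edgeR). Without the low-count filter both were called higher (adjusted p = 0.00846 and 0.0196, edgeR), and 2 mitochondrial genes rose and 4 fell. The call of rrn5 was also gained without whole-plant chilling replicate 1 (adjusted p = 0.0337, edgeR) and without control replicate 3 (adjusted p = 0.0444, edgeR).

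Of 157 plastid genes 4 could be tested, and 0 were called in either direction by edgeR or DESeq2, against 36.2% of all genes by edgeR. One of them, atpF, a subunit of the ATP synthase, had an unadjusted p of 0.0217. Its level was 0.663, 1.92 and 1.09 CPM under whole-plant chilling, against 1.92, 2.11 and 5.37 CPM in control (log2 fold change −1.31, SE 0.52, adjusted p = 0.0572), and with library size alone its adjusted p was 0.0276. It was also called without whole-plant chilling replicate 2 (adjusted p = 0.0384), control replicate 1 (adjusted p = 0.0422) or control replicate 2 (adjusted p = 0.0427, edgeR). The other tested plastid genes were trnK, a transfer RNA, matK, the maturase encoded within its intron, and ycf3, an assembly factor of photosystem I, which was called lower without the low-count filter (log2 fold change −1.045, adjusted p = 0.00384, edgeR). Of 154 annotated microRNA loci, 0 had a count in the 6 libraries, which poly(A)-primed libraries of this kind are not made to catch.

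Chilling of the whole plant was then set directly against chilling of 1 part. The top crown of whole-plant chilled seedlings differed from that of shoot-only chilled ones in 4576 genes (25.8%), of which 2217 were higher (12.5%) and 2359 lower (13.3%). Without shoot-only replicate 3 that total was 3025. It differed from root-only chilling in 4766 genes (26.9%), 2198 higher (12.4%) and 2568 lower (14.5%). With library size alone 1407 were higher and 3207 lower than under shoot-only chilling, and 1189 higher and 3465 lower than under root-only chilling. Root-only chilling differs in root temperature (0 °C) as well as in the warm shoot. Set beside control, shoot-only chilling had 2024 genes higher (11.4%) and 2211 lower (12.5%), 23.9% in all, and root-only chilling 3151 higher (17.8%) and 3211 lower (18.1%), 35.9% in all, from the same control libraries.

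Genes higher in both chilled leaf and root ranked by condition. This group, and the group lower in both, were chosen by change under whole-plant chilling in leaf and root, and not under local chilling. That choice can favour whole-plant chilling as the extreme of the order. Of the 753 tested, whole-plant chilling was higher than shoot-only chilling in 457 and lower in 13 (median log2 difference 0.97), and higher than root-only chilling in 270 and lower in 94 (median 0.42). These were 60.7% and 1.73% against shoot-only chilling, where all genes had 12.5% and 13.3%, and 35.9% and 12.5% against root-only chilling, where all genes had 12.4% and 14.5%. Their mean log2 CPM was 4.38, 4.44 and 4.28 in the whole-plant, 3.23, 3.48 and 3.08 in the shoot-only, 4.16, 4.03 and 3.75 in the root-only and 2.96, 2.995 and 2.96 in the control libraries. The 4 conditions did not overlap, and root-only chilling lay nearer to whole-plant chilling than shoot-only chilling did. Among the 349 genes lower in both organs, whole-plant chilling was lower than shoot-only chilling in 152 (43.6%) and higher in 15 (4.3%), and lower than root-only chilling in 147 (42.1%) and higher in 11 (3.15%). Here shoot-only (mean log2 CPM 3.45, 3.16 and 3.30) and root-only libraries (3.24, 3.46 and 3.54) overlapped, between whole-plant (2.66, 2.79 and 2.60) and control libraries (3.88, 3.95 and 3.89).

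The same identifiers had the largest rises over shoot-only and over root-only chilling. They were picked for those differences, so their low level when a single part was cold follows from the choice. Zm00001d010667 had 67.6, 66.5 and 65.3 CPM under whole-plant chilling, against 0, 0.781 and 0 CPM under shoot-only chilling, 0.970, 2.65 and 2.78 CPM under root-only chilling and 0.800, 0.703 and 1.21 CPM in control. Its log2 difference from root-only chilling was 4.998 (SE 0.31, adjusted p = 1.91e-09, edgeR). The shoot-only libraries held 4 counts, all in replicate 2, against 953 under whole-plant chilling, so the fitted log2 difference of 7.79 (adjusted p = 1.19e-09, edgeR) is no firm size and was 11.44 without that replicate. Zm00001d008223 had 34.2, 27.6 and 13.3 CPM under whole-plant chilling, and averaged 0.197 ± 0.198 CPM under shoot-only, 1.40 ± 1.22 CPM under root-only chilling and 0.171 ± 0.176 CPM in control (SD, n = 3 each). Against the 3 counts of the shoot-only libraries its ratio was 121 with an exact counting interval of 41.1 to 590, and its log2 difference from root-only chilling was 4.14 (SE 0.55, adjusted p = 6.19e-05, edgeR), or 4.83 without root-only replicate 1 and 3.55 without root-only replicate 3.

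The identifiers with the largest falls against local chilling had their highest mean under 1 of the local treatments. Zm00001d007411 had 0.442, 0.384 and 0 CPM under whole-plant chilling, against 60.3, 87.1 and 116 CPM under root-only chilling (log2 difference −8.18, SE 0.42, adjusted p = 5.82e-10, edgeR), and averaged 0.169 ± 0.174 CPM in control (SD, n = 3). Zm00001d047799 had 0 counts under whole-plant chilling, against 6.63, 10.1 and 14.7 CPM under root-only chilling, which makes it at least 16.6-fold lower under whole-plant chilling at a floor of 3 counts per library. ENSRNA049461520 had 0.442, 1.15 and 1.31 CPM under whole-plant chilling, against 17.0, 14.1 and 26.8 CPM under shoot-only chilling (log2 difference −4.27, SE 0.40, adjusted p = 7.62e-07, edgeR), and 2.703 ± 0.692 CPM in control (SD, n = 3). Zm00001d008007 had 1.32, 0.959 and 0 CPM under whole-plant chilling, against 21.9, 11.5 and 21.0 CPM under shoot-only chilling, 13.1, 10.4 and 11.9 CPM under root-only chilling and 6.56, 9.31 and 9.36 CPM in control. Its values were thus lower under whole-plant chilling and higher under both local treatments than in control, with no overlap (log2 difference of whole-plant from shoot-only chilling −4.52, SE 0.44, adjusted p = 1.26e-06, edgeR).

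Whether the top crown responded otherwise than other tissues was tested as an interaction of tissue and whole-plant chilling. Against the bottom crown 152 of 19595 genes (0.776%) differed in response, 61 with a higher (0.311%) and 91 with a lower response (0.464%) in top crown. Of these, 24 were called in both parts in opposite directions and 27 in the same direction. In bottom crown 35% of 18779 genes were called against its own control (17.6% higher, 17.4% lower), which is no matching share for either count. The count of 152 became 69 to 185 when 1 top-crown library was left out. It was 69 without whole-plant chilling replicate 3, 81 without control replicate 3 and 82 without whole-plant chilling replicate 1. DESeq2 called 175 higher and 147 lower. No bottom-crown library was left out. Of the chilled bottom-crown libraries, replicate 1 stood apart (chi-square per degree of freedom 18.2 and 21.0 against the others, 7.71 between those). It was also the deepest library, with 8633854 counts. A small number of calls does not show that the crown parts responded alike. Against leaf 2217 of 19260 genes (11.5%) differed, 1052 higher (5.46%) and 1165 lower (6.05%), and against root 2014 of 20651 (9.75%), 754 higher (3.65%) and 1260 lower (6.1%). With library size alone the split against root was 1024 higher and 1004 lower, without the chilled root library that stood apart 1206 higher and 1251 lower, and in a fit of the 12 libraries compared 472 higher and 913 lower.

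The clearest difference between the crown parts was in Zm00001d004744, which moved in opposite directions. In top crown it averaged 24.9 ± 8.85 CPM under whole-plant chilling and 4.79 ± 1.71 CPM in control, and in bottom crown 2.77 ± 1.23 CPM under whole-plant chilling and 14.9 ± 1.76 CPM in control (SD, n = 3 each). The difference between the responses was 4.78 on the log2 scale (SE 0.44, adjusted p = 1.05e-06, edgeR). Zm00001d004730 went the other way, with 1.07 ± 0.368 CPM under whole-plant chilling and 7.16 ± 2.13 CPM in control in top crown, and 23.4 ± 0.281 and 14.0 ± 3.33 CPM in bottom crown (SD, n = 3 each). Its interaction was −3.45 (SE 0.63, adjusted p = 0.00886, edgeR).

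**Figure D5:**
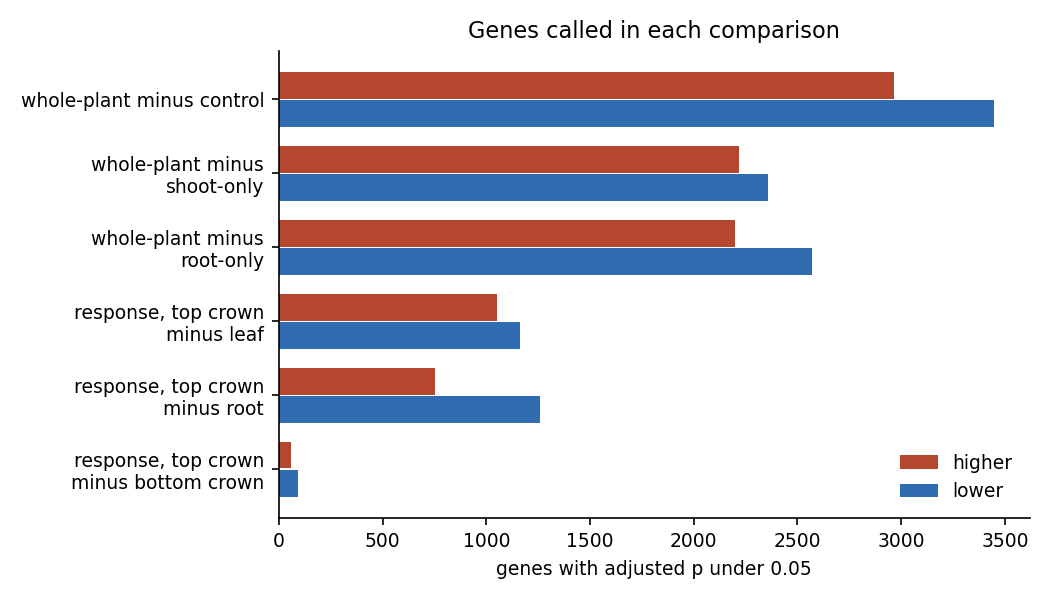
Number of genes called higher (upper bar) and lower (lower bar) at an adjusted p under 0.05 in 6 comparisons of the top crown: whole-plant chilling against control and against each local chilling, and the response to whole-plant chilling set against that of leaf, root and bottom crown. The counts run from 3447 genes lower than in control to 61 genes with a higher response than in bottom crown.

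Against root 4 of 24 mitochondrial genes were called with a lower response in top crown, and all 4 encode parts of the ribosome that translates inside mitochondria. The lower response was not confined to ribosome genes. The median over the 24 was −1.03 on the log2 scale (quartiles −1.509 to −0.623), against −0.107 over the 17706 genes tested in top crown. The ribosomal protein gene rps12 averaged 9.50 ± 0.92 CPM under whole-plant chilling and 11.8 ± 2.30 CPM in control in top crown, and 42.5 ± 11.3 and 12.7 ± 3.19 CPM in root (SD, n = 3 each), an interaction of −2.04 (SE 0.41, adjusted p = 0.00144, edgeR). The same held for rps7, with 9.49 ± 1.99 CPM under whole-plant chilling and 9.35 ± 0.761 CPM in control in top crown, and 52.2 ± 12.9 and 13.4 ± 3.93 CPM in root (SD, n = 3 each), an interaction of −1.93 (SE 0.42, adjusted p = 0.00323, edgeR). The ribosomal RNA genes rrn5 and rrn18 had interactions of −2.06 (adjusted p = 0.00443) and −1.80 (adjusted p = 0.0175, edgeR) in the same direction. Other ribosome genes tested there were not called, among them rps1 (adjusted p = 0.773) and rrn26 (adjusted p = 0.0888, edgeR). The largest negative estimates were in genes outside the ribosome that were not called. These were mat-r at −2.22 (adjusted p = 0.0777) and nad3 at −2.10 (adjusted p = 0.0693, edgeR). DESeq2 called 6 of the 24, and rrn18 lost its call without top-crown control replicate 3 (adjusted p = 0.059, edgeR) or without the chilled root library that stood apart. Against leaf 1 of 21 was called, rps7, at −1.97 (adjusted p = 0.0126, edgeR), where DESeq2 called 4. Against bottom crown 0 of 20 were called by edgeR or DESeq2, and 2 had an unadjusted p under 0.05. The 9.75% of all genes called against root, 11.5% against leaf and 0.776% against bottom crown are the background to the edgeR calls. The 2 genes at an unadjusted p have no such background here.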

How the data were processed

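Trizol-extracted RNA was made into QuantSeq 3′ libraries (forward kit) and read on an Illumina NextSeq, per the labels' protocols. The submitters' processing notes name STAR and edgeR without versions; the sources used here give no build, counting tool, strand setting or molecular identifiers. Overlapping genes, antisense partners and close paralogs may therefore divide reads, and their values are uncertain. The authors deposited raw counts per gene as whole numbers over 46430 identifiers, and all tests used these counts. The authors also deposited a table of scaled values called CPM for each tissue (read here as a signal, since column totals differ); in the top-crown table, of 19828 genes, each value was the deposited count times 1 constant per library, to within a relative 2.58e-09, and that table served no other purpose.

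Nuclear gene models made up 44146 of the identifiers, of which 0 matched the name table (assembly Zm-B73-REFERENCE-NAM-5.0), 1765 were ENSRNA features (0 matched), 154 microRNA loci (153), 208 mitochondrial and 157 plastid genes (all). No sequences or coordinates are printed, because the build of the files is unknown. Of 39 lists of named genes and cell markers, 0 had a tested member.

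The 12 top-crown libraries were fitted together with edgeR 4.0.16 in R 4.3.3 (filterByExpr, TMM factors, robust quasi-likelihood fits, 1 mean per condition, Benjamini-Hochberg threshold 0.05); responses of 2 tissues were compared in fits of 24 libraries. Standard errors are those implied by the F value. Counts per library are limited by depth, and intervals and the floor of 3 counts cover counting error only. Replicates differed by more than sampling noise (chi-square per degree of freedom 5.43 or more within both groups). All top-crown libraries carry 1 flow cell name in their labels. The fitting steps were tested on simulated counts. Alternatives were DESeq2 1.42.0, library size alone, no low-count filter, other sets of libraries, a replicate block and leaving out libraries.

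Identifiers without names were taken by rule: the 2 largest rises and 2 largest falls per comparison with adjusted p under 0.05, a mean of 10 CPM or more in either group and non-overlapping libraries; called organelle genes were also named, and other organelle genes were chosen after their values were seen. In comparisons of responses the minimum of 10 CPM could be met in the other tissue. The comparison, the gene groups and the lists were chosen with earlier results of these data known. No gene group was tested as a set.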

Additional observations from a re-analysis of the deposited data

Results flagged for a closer look

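A different response to whole-plant chilling in top crown than in another tissue, by the edgeR interaction test, brought each of the following to attention; values are top-crown minus other-tissue log2 responses. Against bottom crown they were 4.78 for Zm00001d004744, 3.28 for Zm00001d039657, −3.45 for Zm00001d004730 and −3.38 for Zm00001d049081. Zm00001d039657 averaged 13.2 ± 2.60 CPM under whole-plant chilling and 1.04 ± 0.135 CPM in control in top crown, and 10.5 ± 2.06 and 8.16 ± 2.21 CPM in bottom crown (SD, n = 3 each). Zm00001d049081 averaged 2.38 ± 1.44 CPM under whole-plant chilling and 2.67 ± 0.0439 CPM in control in top crown, and 24.8 ± 7.66 and 2.64 ± 1.24 CPM in bottom crown (SD, n = 3 each).

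Against leaf the values were 6.22 for Zm00001d044194, 5.56 for Zm00001d018238, −10.73 for Zm00001d012381, −10.11 for Zm00001d013333 and −1.97 for rps7. Zm00001d018238 had 0 counts in control top crown, and Zm00001d012381 and Zm00001d013333 had 0 counts in control leaf, so their fitted values depend on the prior count and are no bounds. Zm00001d012381 averaged 2.75 ± 0.523 CPM under whole-plant chilling and 7.13 ± 1.44 CPM in control in top crown, against 15.4 ± 8.62 CPM in chilled leaf (SD, n = 3 each). Zm00001d044194 averaged under 1 CPM in top crown in both conditions, and lost its call without whole-plant chilling replicate 1 (adjusted p = 0.0649, edgeR). Its value was 7.67 without control replicate 1. Zm00001d013333 also averaged under 1 CPM in top crown, at 0.396 ± 0.359 under whole-plant chilling and 0.994 ± 0.0948 in control. It averaged 10.7 ± 4.32 CPM in chilled leaf (SD, n = 3 each), so its value rests on change in leaf.

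Against root the values were 13.97 for Zm00001d022084, 8.78 for Zm00001d007049, −8.72 for Zm00001d004443, −8.02 for Zm00001d021226, 5.73 for Zm00001d044426, −2.04 for rps12, −2.06 for rrn5, −1.80 for rrn18 and −1.93 for rps7. Zm00001d022084 had 0 counts in control top crown, Zm00001d004443 in chilled top crown and Zm00001d021226 in control root, so their fitted values are no bounds either. The first 4 averaged under 1 CPM in top crown in both conditions, so their values rest on change in root, and Zm00001d022084, for one, averaged 1.63 ± 2.24 CPM in chilled and 687 ± 438 CPM in control root (SD, n = 3 each). Each of these 4 lost its call without at least 1 library, with a highest adjusted p (edgeR) of 0.149 for Zm00001d022084 (without whole-plant chilling replicate 2), 0.509 for Zm00001d007049 (without the same library), 0.0896 for Zm00001d004443 (without control replicate 1) and 1 for Zm00001d021226 (without control replicate 2). For rrn18 the call was lost without control replicate 3 (adjusted p = 0.059) and without the chilled root library that stood apart (adjusted p = 0.0693, edgeR).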

How the results depend on the processing

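With library size alone 1535 genes rose and 5467 fell under whole-plant chilling, and median log2 fold changes were 0.942 in ENSRNA features, 0.893 in genes higher in both chilled leaf and root and −1.487 in genes lower in both. With DESeq2 322 genes differed in response from the bottom crown, 3118 genes rose and 2930 fell against control, and its other main counts stayed within 1.5 times. Leaving out 1 top-crown library gave 2353 to 2737 genes higher and 2605 to 3087 lower than in control. For the difference from shoot-only chilling it gave 3025 genes at the lowest, without shoot-only replicate 3, and 4297 at the highest. For the bottom-crown interaction it gave 69 to 185 genes. The replicate numbers were not taken to pair samples, since in no comparison did all 3 same-numbered pairs correlate above 0.1. Deviations of same-numbered whole-plant and control libraries correlated at −0.155 to 0.13, and of others at −0.288 to 0.263. Same-numbered whole-plant libraries correlated at 0.09, 0.126 and 0.108 with shoot-only and at 0.164, 0.178 and 0.067 with root-only libraries, each best with its own number, which is a hint from the data and not from the design. With a replicate block 2976 genes rose and 3388 fell, 4503 and 4763 differed from shoot-only and root-only chilling, and 183, 2318 and 2325 genes differed in response from bottom crown, leaf and root. Of 149 alternative values of the main results, 139 stayed within 1.5 times (counts) or 1 SD (medians). A count has no sign to reverse, and no median changed sign. The larger direction among calls did change. Against control it went from 2967 higher and 3447 lower to 3118 and 2930 with DESeq2. For the response against bottom crown it went from 61 and 91 to 175 and 147 with DESeq2. Against leaf it went from 1052 and 1165 to 1213 and 1031 in a fit of the 12 libraries compared. Depth limits the genes near 1 CPM: without the low-count filter 3323 genes rose and 3736 fell. Causes were not tested.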
